A study of Mus musculus with 9 samples.

Results

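The cholesterol synthesis genes examined here were Hmgcs1, Idi1, Fdft1, Sqle, Lss, Srebf2 and Insig1. These 7 genes were taken by symbol from the feature lists, out of 32285 mouse genes, and each symbol matched 1 gene. They were followed in single-cell RNA-seq libraries of EP ZFTA-RELA tumors (n = 5) and control brains (n = 4) from mice aged 6 to 8 weeks. Tumor-bearing mice had the genotype NestinCreERT2;Fus1, in which tamoxifen-inducible Cre, driven by Nestin, switches on a conditional fusion of ZFTA and RELA in the radial glia of the embryo, the neural stem cells of the developing brain. Control mice had the genotype NestinCreERT2;TdT and so share the Nestin-driven Cre, with TdT in the label where tumor-bearing mice have Fus1. TdTomato, a red fluorescent reporter, was also present in tumor-bearing mice of the study and does not set the groups apart. Tissue of both groups was dissociated, cleared on Percoll and sorted with DAPI and an antibody to the erythroid marker Ter119, and each library was taken as 1 mouse. Reads had been counted by unique molecular identifier (UMI), a tag that marks 1 transcript molecule.

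Cholesterol is made from acetyl-CoA along a chain of enzymes, and brain cells make their own because lipoproteins do not cross the blood-brain barrier. Transcription of the chain is driven by SREBP2, which INSIG proteins hold in the endoplasmic reticulum while sterols are plentiful. Hmgcs1 encodes the cytosolic HMG-CoA synthase, an early step of the chain, and Idi1 the isomerase that interconverts the isoprenoid building blocks. Fdft1 encodes squalene synthase, the first enzyme committed to sterols, Sqle the epoxidase that oxidizes squalene, and Lss the cyclase that closes the ring to lanosterol. Srebf2 encodes SREBP2 itself, and Insig1, which restrains it, is also one of its targets.

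On the mouse assembly GRCm38.p6 the members lie on 5 chromosomes. They are Hmgcs1 (ENSMUSG00000093930, chr13:119690351-119708260), Idi1 (ENSMUSG00000058258, chr13:8885606-8892396), Fdft1 (ENSMUSG00000021273, chr14:63145150-63181687), Sqle (ENSMUSG00000022351, chr15:59315092-59331193), Lss (ENSMUSG00000033105, chr10:76531565-76557139), Srebf2 (ENSMUSG00000022463, chr15:82147269-82205379) and Insig1 (ENSMUSG00000045294, chr5:28071412-28078662). RefSeq promoter windows of that assembly were given for 5 of the 7 members and are shown because SREBP2 acts at such sites. Each is the 250 bases before the gene's start in that table, which for Lss lies inside the span given above, on the plus strand, 5′ to 3′, with capitals at 2 motifs searched on both strands, TCACCCCA (reverse TGGGGTGA), a core of the sterol regulatory element, and CCAAT (reverse ATTGG). The windows are chr13:119690101-119690350 for Hmgcs1, chr13:8885356-8885605 for Idi1, chr10:76531355-76531604 for Lss, chr15:82147019-82147268 for Srebf2 and chr5:28071162-28071411 for Insig1.
Hmgcs1: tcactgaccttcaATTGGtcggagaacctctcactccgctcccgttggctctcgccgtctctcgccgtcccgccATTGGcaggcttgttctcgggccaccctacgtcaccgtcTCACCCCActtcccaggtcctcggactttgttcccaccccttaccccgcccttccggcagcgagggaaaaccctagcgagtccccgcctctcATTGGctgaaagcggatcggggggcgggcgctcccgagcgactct
Idi1: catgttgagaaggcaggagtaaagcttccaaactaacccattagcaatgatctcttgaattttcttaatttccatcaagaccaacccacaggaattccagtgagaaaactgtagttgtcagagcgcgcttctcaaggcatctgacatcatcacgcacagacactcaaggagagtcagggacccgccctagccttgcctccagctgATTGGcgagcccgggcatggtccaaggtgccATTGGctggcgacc
Lss: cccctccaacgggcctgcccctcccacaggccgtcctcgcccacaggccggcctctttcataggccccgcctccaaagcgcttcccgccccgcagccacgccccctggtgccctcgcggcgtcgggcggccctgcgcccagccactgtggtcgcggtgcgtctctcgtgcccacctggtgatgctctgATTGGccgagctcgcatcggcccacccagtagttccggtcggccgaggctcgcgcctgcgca
Srebf2: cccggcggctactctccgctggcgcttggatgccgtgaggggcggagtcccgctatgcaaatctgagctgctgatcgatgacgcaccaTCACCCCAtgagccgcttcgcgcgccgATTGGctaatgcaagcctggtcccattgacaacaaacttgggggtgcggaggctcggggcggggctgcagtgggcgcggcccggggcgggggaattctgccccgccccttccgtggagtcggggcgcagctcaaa
Insig1: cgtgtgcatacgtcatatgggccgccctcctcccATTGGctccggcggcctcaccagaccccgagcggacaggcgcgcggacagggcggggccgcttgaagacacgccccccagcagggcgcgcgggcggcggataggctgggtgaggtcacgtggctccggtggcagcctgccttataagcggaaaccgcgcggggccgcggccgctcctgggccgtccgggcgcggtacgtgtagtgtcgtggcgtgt

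The core TCACCCCA stood 137 bases before the start of Hmgcs1 and 162 bases before that of Srebf2, and these letters were in 1.34% of all 32851 promoter windows of this length. The letters ATTGG were in all 5 windows, 3 times in Hmgcs1 and 2 times in Idi1, against 33.8% of all windows with the motif on either strand. The motifs overlapped in no window, were chosen after the sequences had been read, and describe letters, not bound sites.

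After filtering, 4023 to 6365 cells with 13763731 to 21703892 UMIs remained per control and 1721 to 5121 cells with 5902794 to 37652982 UMIs per tumor. The fusion sequence had a UMI in 6, 209, 6, 609 and 278 cells of tumor replicates 1 to 5. It had none in control replicates 1 to 3, which allows a share of up to 0.0471% to 0.0746% of cells by counting error alone, and control replicate 4 was not read for it because its feature list is shorter than its matrix. Tumor replicates 1 and 3 therefore stood apart by their few fusion transcripts, and the results are also given without them where that changed a call. Libraries shared 1 to 9 cell barcodes in pairs, at most 0.290% of the smaller library, control replicate 4 not being compared. Cells were assigned to types by marker genes. Neuron-like cells made up 5763, 4509, 3649 and 4631 cells in control replicates 1 to 4 and 888, 370, 247, 3 and 218 in tumor replicates 1 to 5, whereas no control held 30 astrocyte-, OPC- (oligodendrocyte precursor), neural-progenitor- or endothelial-like cells. The summed neuron markers of the neuron-like cells reached 28869 to 32006 CPM in controls and 12280.0 to 28057 CPM in tumors. In each type compared here all 10 of its own markers were detected and their sum exceeded those of the other cell type lists, except that erythroid markers, at 17.1 to 62353 CPM, reached above the endothelial list, at 11104 to 19773 CPM, in endothelial-like cells.

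Over all kept cells, tumors had higher levels of Idi1, Insig1 and Hmgcs1 and a lower level of Lss than control brains, while Fdft1, Sqle and Srebf2 did not pass the test. Levels are UMIs of the gene per 1000000 UMIs of all mouse genes, summed over the same cells or barcodes of a library (CPM). Differences are log2 fold changes from edgeR's quasi-likelihood test after TMM scaling, with Benjamini-Hochberg adjustment over all genes tested. Thus 3 of the 7 members rose and 1 fell, beside 61.6% of all 17599 genes tested that were called in this comparison, so the share of members called was near the background. The members' median difference was 0.35 and that of all genes 0.043. In these sums fewer cells of a type and less RNA per cell cannot be told apart. Free RNA, whose levels are given below, was not subtracted from them.

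Idi1 had 33.3, 36.1, 33.1 and 33.8 CPM in control replicates 1 to 4 and 58.3, 92.5, 59.7, 83.2 and 79.2 CPM in tumor replicates 1 to 5. Every tumor lay above every control, and the log2 difference was 1.42 ± 0.26 (SE, adjusted p = 0.00137). Insig1, the sterol-sensing retention factor, had 24.6, 24.3, 23.7 and 24.5 CPM in controls and 35.7, 49.0, 40.5, 44.5 and 41.4 CPM in tumors. Its groups did not overlap either, with a log2 difference of 1.08 ± 0.20 (SE, adjusted p = 0.00173). Hmgcs1 had 115, 116, 113 and 112 CPM in controls and 125, 165, 148, 138 and 129.5 CPM in tumors, again without overlap, and differed by 0.57 ± 0.19 (SE, adjusted p = 0.0236) on the log2 scale. This call was lost without any single control, at adjusted p values of 0.0583 to 0.0651. Lss, the lanosterol-forming cyclase, ran the other way. It had 29.2, 27.3, 28.3 and 29.2 CPM in controls and 17.1, 13.6, 13.8, 11.1 and 11.1 CPM in tumors, with all tumors below all controls and a log2 difference of -0.86 ± 0.15 (SE, adjusted p = 0.00132). How many of all genes had groups without overlap was not counted, here or below.

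The members that act between Idi1 and Lss, Fdft1 and Sqle, differed less. Fdft1 had 45.8, 46.0, 44.4 and 48.3 CPM in controls and 43.9, 43.2, 42.2, 33.3 and 51.2 CPM in tumors, and its groups overlapped, with a log2 difference of 0.14 ± 0.16 (SE, adjusted p = 0.463). Sqle had 37.8, 40.4, 39.3 and 38.7 CPM in controls and 37.8, 44.5, 38.1, 37.5 and 48.4 CPM in tumors, with overlapping groups and a log2 difference of 0.35 ± 0.18 (SE, adjusted p = 0.122). Sqle passed the threshold without tumor replicate 1 (0.44 ± 0.17, adjusted p = 0.0385) and without tumor replicates 1 and 3 (0.54 ± 0.11, adjusted p = 0.00257). Srebf2, the regulator, had 109, 103, 93.2 and 95.5 CPM in controls and 74.2, 102, 87.9, 97.7 and 72.6 CPM in tumors, a log2 difference of 0.071 ± 0.21 (SE, adjusted p = 0.780). Scaling by library totals in place of TMM shifted the median of all genes from 0.043 to -0.19, turned the directions of Fdft1 to -0.11 and of Srebf2 to -0.21, and ended the call of Hmgcs1, at an adjusted p of 0.0830.

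Most control cells were neuron-like and most tumor cells were not, so the sums were also made without neuron-like cells. Idi1 then had 37.6, 43.3, 54.7 and 39.6 CPM in controls and 65.6, 94.6, 63.7, 83.2 and 79.3 CPM in tumors, still without overlap, and remained past the threshold at 0.98 ± 0.23 (SE, adjusted p = 0.00962). Insig1 had 33.5, 30.1, 33.7 and 30.04 CPM in controls and 38.4, 49.0, 42.9, 44.5 and 41.1 CPM in tumors and also remained past it, at 0.60 ± 0.18 (SE, adjusted p = 0.0248). Hmgcs1 had 130.1, 137, 131 and 123 CPM in controls and 125, 161, 153, 138 and 129 CPM in tumors, groups that overlapped, and its difference fell to 0.27 ± 0.17 (SE, adjusted p = 0.235). Lss had 17.2, 23.1, 14.6 and 19.8 CPM in controls and 8.81, 12.1, 13.8, 11.1 and 10.98 CPM in tumors, with no overlap but a difference of -0.57 ± 0.22 (SE, adjusted p = 0.0684) that no longer passed. Thus 2 of the 4 calls were kept among cells other than neuron-like, 2 of 7 members beside 38.3% of all genes called there, a share below the background. Of the control cells left, 406 of 602, 365 of 508, 219 of 374 and 231 of 369 in control replicates 1 to 4 were ungated, that is, assigned to no type. Whether neurons were among them was not tested. The mix of types among the cells left still differed between the groups.

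**Figure D1:**
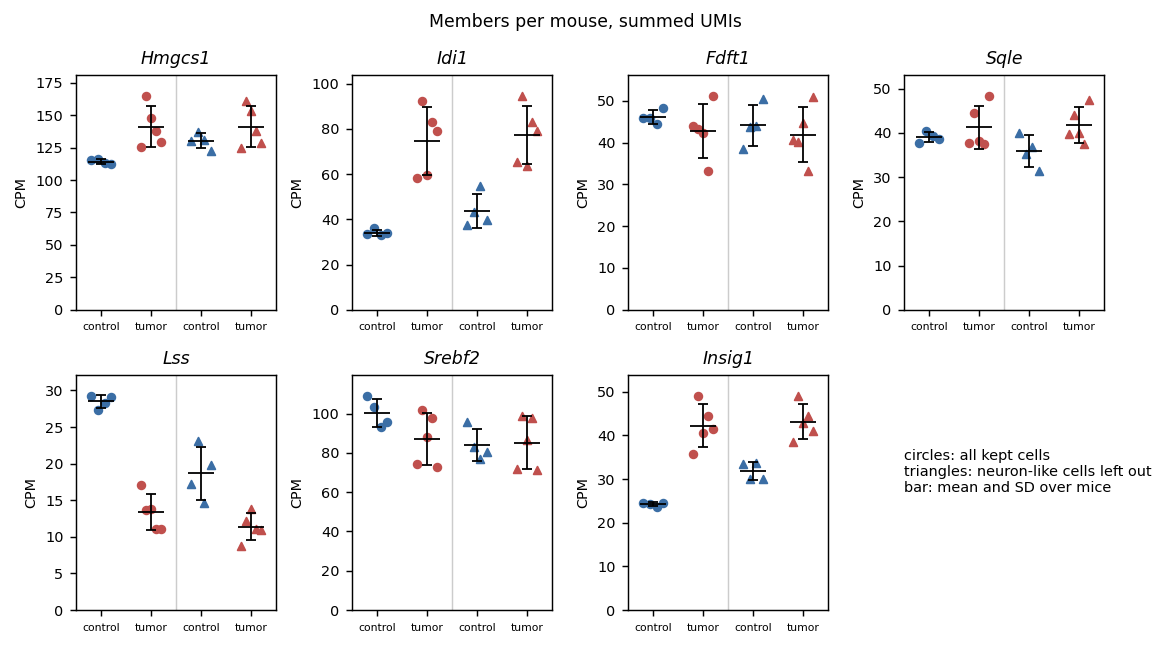
Each panel plots 1 member's level (CPM, from 0) in each mouse, with circles for all kept cells, triangles for the sums without neuron-like cells, blue for controls, red for tumors, and bars for the mean and SD. All tumors lie above all controls for Idi1 and Insig1 with and without neuron-like cells, and below them for Lss. How many of all genes separate in this way was not counted.

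Within tumors, among the types held by at least 3 tumors, the members' means were highest in OPC-like or astrocyte-like cells, and lowest in microglia/macrophage-like cells for each member but Lss, which was lowest in mural-like cells. Lss had 4.29 ± 4.45 CPM (SD, n = 3) in mural-like cells, from 0 to 8.89 CPM. This overlapped with the 5.08 ± 2.73 CPM (SD, n = 5) of microglia/macrophage-like cells. Levels are given for tumors with at least 30 cells of a type, which OPC-like and neural-progenitor-like cells reached in tumor replicates 2 to 5, neuron-like cells in tumor replicates 1, 2, 3 and 5, mural-like cells in tumor replicates 2 to 4, and astrocyte-, endothelial- and microglia/macrophage-like cells in all 5. Hmgcs1 had 229, 410.2, 273 and 264 CPM in OPC-like cells and 185, 255, 241, 115 and 157 CPM in astrocyte-like cells. In microglia/macrophage-like cells of tumor replicates 1 to 5 it had 71.1, 57.4, 28.0, 72.7 and 51.0 CPM. By their means Hmgcs1 ran from 294 ± 79.7 CPM (SD, n = 4) in OPC-like cells through astrocyte-, neural-progenitor- and neuron-like cells, at 141 ± 43.8 CPM (SD, n = 4), to mural-like cells at 71.8 ± 25.0 CPM (SD, n = 3), then endothelial-like cells and microglia/macrophage-like cells, at 56.0 ± 18.1 CPM (SD, n = 5). Neighbours in this order overlapped, except neuron-like and mural-like cells.

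Sqle, which catalyses an oxygen-dependent step, had 65.5, 106, 74.7 and 148 CPM in OPC-like cells and 69.5, 63.8, 98.9, 31.4 and 45.8 CPM in astrocyte-like cells, against 4.45, 10.7, 6.00, 16.9 and 13.5 CPM in microglia/macrophage-like cells. The microglia/macrophage-like values lay below all values of the other types named. Idi1 had 131, 135, 133 and 227 CPM in OPC-like cells, with tumor replicate 5 far above the others, 105, 158, 162, 81.5 and 95.0 CPM in astrocyte-like cells and 20.7, 22.8, 11.003, 42.2 and 24.8 CPM in microglia/macrophage-like cells. Fdft1 lay at 50.6 to 77.1 CPM in OPC-like, 24.4 to 118 CPM in astrocyte-like and 8.50 to 20.5 CPM in microglia/macrophage-like cells. Lss was at 23.1 to 43.4 CPM in OPC-like cells and 13.2 to 35.8 CPM in neuron-like cells, its 2 highest types, and at 5.22 to 15.3 CPM in neural-progenitor-like cells. For Idi1, Fdft1, Sqle, Lss and Insig1 each type overlapped with its neighbour in the order of means.

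Of the regulators, Insig1 followed the same order of means as Hmgcs1 and Srebf2 did not. Srebf2 was highest by its mean in astrocyte-like cells, at 127 ± 41.8 CPM (SD, n = 5), with 114, 154, 185, 103 and 80.1 CPM in tumor replicates 1 to 5, and OPC-like cells came 4th, at 99.8 ± 7.87 CPM (SD, n = 4). OPC-like and mural-like cells, the next in order, did not overlap for Srebf2, and the other neighbours did. Insig1 had 59.6, 57.9, 73.4 and 74.0 CPM in OPC-like cells, 40.0 to 74.4 CPM in astrocyte-like cells and 11.5 to 21.4 CPM in microglia/macrophage-like cells. In oligodendrocyte-like cells, which reached 30 in tumor replicates 1 and 2 alone, Insig1 had 122 and 94.2 CPM, the highest of any type in both tumors. Hmgcs1 had 129 and 255 CPM in the same cells.

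**Figure D2:**
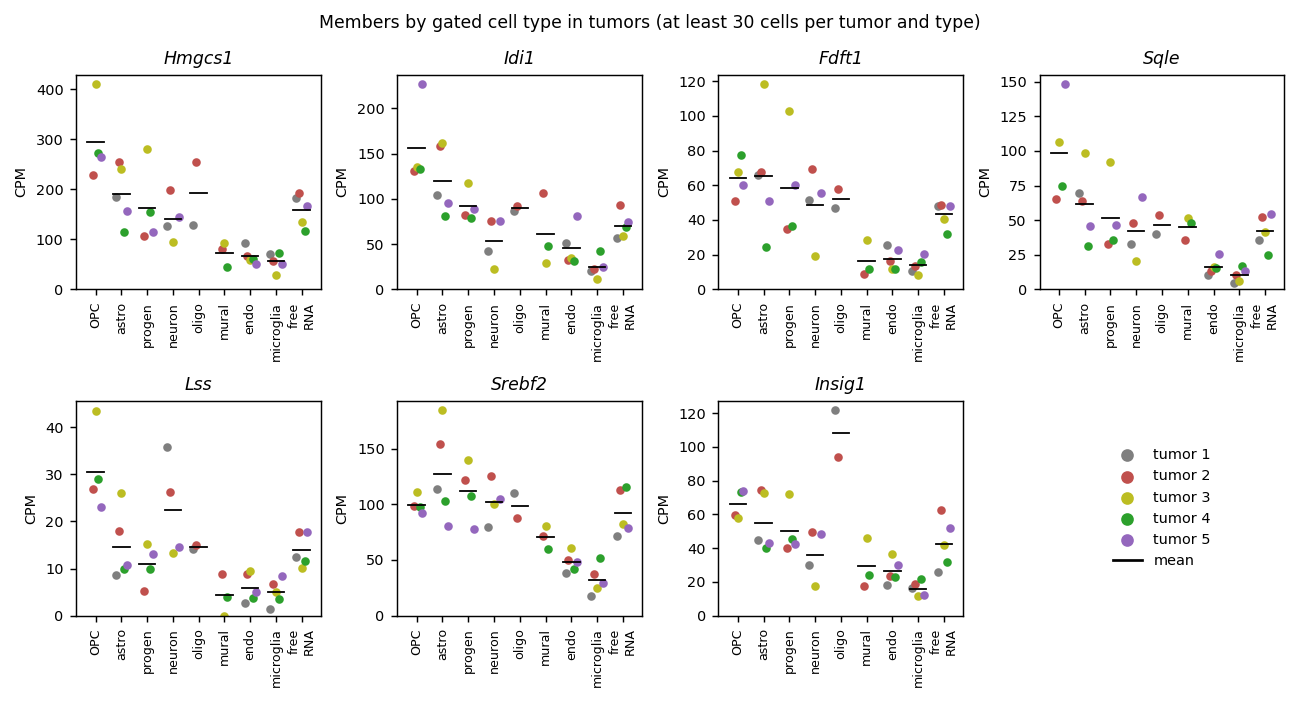
Each panel plots 1 member's level (CPM, from 0) by cell type in tumors, with 1 point per tumor, coloured by tumor, and a line at the mean. Among types with at least 3 tumors, OPC-like cells hold the highest means for Hmgcs1, Idi1, Sqle, Lss and Insig1, and microglia/macrophage-like cells the lowest for each member but Lss.

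As a background, free RNA was taken from the 3000 barcodes of lowest UMI total in every library, none of which was kept as a cell, although all 3000 of tumor replicate 3, which has 9001 barcodes in all, were among those filtered for cells. These held medians of 691 to 1338 UMIs in controls and 559 to 649 in tumors, so they were not empty, and how much of them was RNA from damaged cells was not tested. Hmgcs1 had 171 to 179.6 CPM in the free RNA of controls, above the 111 to 114 CPM of their neuron-like cells, and 116 to 193 CPM in that of tumors. Lss was the reverse in controls, with 6.49 to 11.4 CPM in free RNA and 27.8 to 30.4 CPM in neuron-like cells. In the free RNA of tumors Lss had 10.1 to 17.7 CPM. Idi1 had 40.4 to 46.7 CPM in the free RNA of controls and 57.0 to 93.5 CPM in that of tumors, without overlap. Insig1 had 26.9 to 29.9 CPM and 25.7 to 62.3 CPM there, which overlapped. The part of free RNA in the differences over all kept cells was not tested. The neuron-like cells of controls also lay below their own free RNA in 4 of 4 controls for Idi1, Fdft1 and Insig1 and in 3 of 4 for Sqle, whereas Srebf2 exceeded it in 3 of 4, the exception being control replicate 3 (95.0 against 96.3 CPM). In tumors microglia/macrophage-like cells lay below their own free RNA for every member in all 5 tumors. The OPC-like cells of each tumor exceeded its own free RNA for each of Hmgcs1, Idi1, Fdft1, Sqle and Lss. Srebf2 did not in tumor replicates 2 and 4, where it had 98.3 and 97.5 CPM in OPC-like cells and 113 and 116 CPM in free RNA, nor did Insig1 in tumor replicate 2, with 59.6 against 62.3 CPM. Astrocyte-like cells exceeded free RNA in all 5 tumors for Idi1 alone. Hmgcs1 did so in 3 of 5, with 115 against 116 CPM in tumor replicate 4 and 157 against 166 CPM in tumor replicate 5. Fdft1, Sqle, Srebf2 and Insig1 did so in 4 of 5, the exceptions being tumor replicate 4 for Fdft1 (24.4 against 32.0 CPM) and Srebf2 (103 against 116 CPM) and tumor replicate 5 for Sqle (45.8 against 54.8 CPM) and Insig1 (43.1 against 52.0 CPM). Lss exceeded free RNA in 2 of 5 tumors there. In neural-progenitor-like cells the members did so in 1 to 3 of 4 tumors, and in neuron-like cells in 1 to 4 of 4. Endothelial-like cells exceeded it for Idi1 in 1 of 5 tumors, replicate 5, and for the other members in 0 of 5. Mural-like cells did so for Sqle in 2 of 3 tumors, for Idi1 and Insig1 in 1 of 3 and for the rest in 0 of 3. Oligodendrocyte-like cells did so in 2 of 2 tumors for Sqle and Insig1 and in 1 of 2 for the others, with Hmgcs1 at 129 against 183 CPM in tumor replicate 1. Where a type did not exceed free RNA, its level is not shown to lie above that background.

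The types were then tested against microglia/macrophage-like cells of the same tumors, with a term for each mouse. In OPC-like cells 7 of 7 members were higher, beside 32.3% of all genes called, and the members' median difference was 1.89 against -0.035 over all genes. No OPC-like value of any member overlapped with the microglia/macrophage-like values, and how many of all genes were without such overlap was not counted. Sqle was higher by 2.40 ± 0.32 (SE, adjusted p = 3.76e-04), Idi1 by 2.08 ± 0.30 (SE, adjusted p = 5.81e-04), Hmgcs1 by 1.93 ± 0.30 (SE, adjusted p = 8.98e-04) and Lss by 1.89 ± 0.39 (SE, adjusted p = 0.00470) on the log2 scale. Srebf2 had the smallest of these differences, 0.90 ± 0.23 (SE, adjusted p = 0.0145). These sums rest on 5 to 84 UMIs of Lss per tumor and 57 to 793 of Hmgcs1. Without tumor replicate 5, 6 of 7 passed, beside 24.1% of all genes. With library totals in place of TMM 7 of 7 were again higher, beside 45.0%, while the median of all genes moved to 0.51.

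In astrocyte-like cells 7 of 7 members were higher as well, beside 42.5% of all genes, with a median of 1.58 against 0.0033. Sqle was higher by 2.02 ± 0.43 (SE, adjusted p = 0.00558), Idi1 by 1.96 ± 0.36 (SE, adjusted p = 0.00277) and Srebf2 by 1.58 ± 0.29 (SE, adjusted p = 0.00273), and Lss, the least of the 7, by 1.05 ± 0.33 (SE, adjusted p = 0.0310). The Lss call was lost without tumor replicate 1, 2, 3 or 4, at adjusted p values of 0.0678 to 0.0740, and without tumor replicates 1 and 3 together (0.125). In neural-progenitor-like cells 6 of 7 were higher, beside 40.1% of all genes. Sqle was higher by 1.58 ± 0.41 (SE, adjusted p = 0.0168) there and Idi1 by 1.49 ± 0.35 (SE, adjusted p = 0.0105), and Lss did not pass (0.51 ± 0.39, adjusted p = 0.336). This count was 3 without tumor replicate 2, beside 25.0% of all genes, and 2 without tumor replicate 5, beside 24.0%.

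Neuron-like cells of tumors had 5 of 7 members higher than microglia/macrophage-like cells, beside 52.0% of all genes called, 25.7% higher and 26.3% lower. The share of members called was closer to the background than in neural-progenitor-like cells. Sqle was higher by 1.56 ± 0.30 (SE, adjusted p = 0.00227) and Srebf2 by 1.24 ± 0.22 (SE, adjusted p = 0.00171), whereas Insig1 (0.59 ± 0.31, adjusted p = 0.147) and Lss (1.21 ± 0.47, adjusted p = 0.0581) did not pass. Hmgcs1 and Idi1 lost their calls without tumor replicate 2 and also without tumor replicate 5, which left 3 of 7, beside 48.2% and 43.6% of all genes. Among vascular cells, endothelial-like cells had 0 of 6 members called by edgeR, DESeq2 or limma voom, with 0 at an unadjusted p under 0.05 by edgeR, beside 37.1% of all genes. Without tumor replicate 4 Idi1 passed there, at 1.09 ± 0.27 (SE, adjusted p = 0.0116), beside 35.7% of all genes, though its level exceeded free RNA in tumor replicate 5 alone. Mural-like cells had 1 of 6, a share near the 17.0% of all genes, namely Sqle, which was higher by 1.74 ± 0.47 (SE, adjusted p = 0.0424). It had 8, 9 and 12 UMIs in tumor replicates 2, 3 and 4, exceeded free RNA in replicates 3 and 4, and the call was lost without any 1 of these tumors. Lss was filtered from both vascular comparisons for its low counts.

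In controls only neuron-like and microglia/macrophage-like cells could be compared. Lss and Srebf2 were higher in neuron-like cells, 2 of 7 members beside 47.2% of all genes called, a share of calls below the background. Of all genes 27.4% were higher, near the share of members that were. Lss had 30.4, 27.8, 29.8 and 29.9 CPM in neuron-like cells and 7.63, 13.1, 10.98 and 22.0 CPM in microglia/macrophage-like cells, without overlap, a log2 difference of 1.08 ± 0.32 (SE, adjusted p = 0.00246). The latter values rest on 2, 5, 3 and 8 UMIs, in cells whose 10 neuron markers stood at 52.0% to 71.5% of their free RNA level. With free RNA subtracted, an alternative chosen after seeing the data, Lss there had 10.8, 17.7, 14.7 and 36.5 CPM, from 1, 3, 2 and 6 UMIs, which overlaps the neuron-like values and was not tested. Srebf2 had 110.1, 105, 95.0 and 96.6 CPM in the former and 68.6, 57.6, 62.2 and 60.4 CPM in the latter, also without overlap, and differed by 0.73 ± 0.16 (SE, adjusted p = 1.36e-05). With free RNA subtracted Srebf2 had 0, 17.7, 22.1 and 24.4 CPM in microglia/macrophage-like cells. The free RNA of controls held 88.0 to 96.3 CPM of Srebf2, so subtraction could only lower these values. Neuron-like cells had no free RNA subtracted for either gene, so the subtracted Srebf2 values cannot be set against theirs. Hmgcs1, at 111 to 114 and 80.1 to 120.4 CPM, overlapped between the types.

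**Figure D3:**
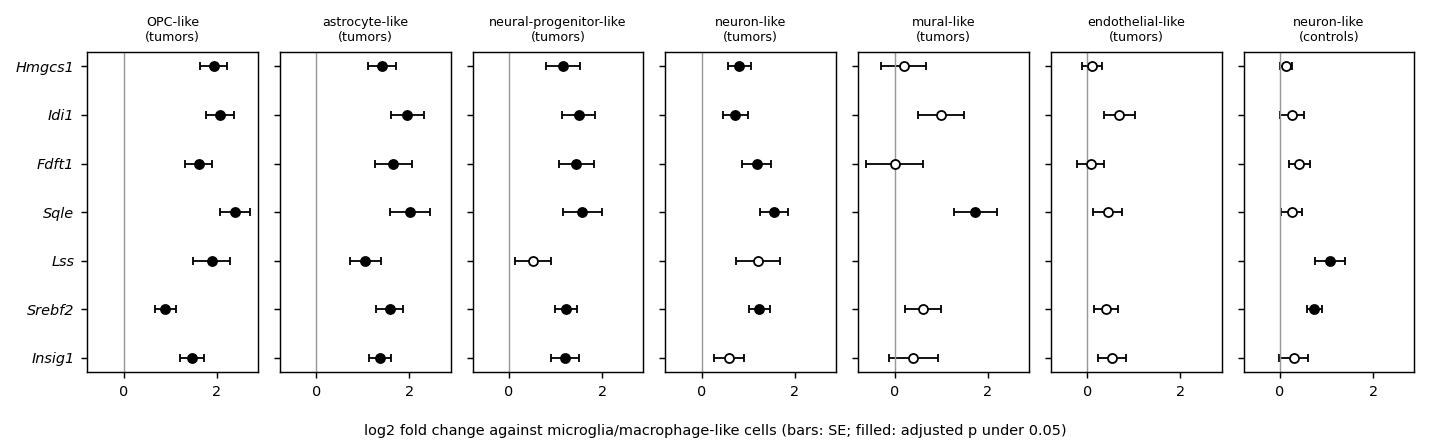
Each panel plots the members' log2 fold change of 1 cell type against microglia/macrophage-like cells of the same mice, with bars for the SE and filled points where the adjusted p is under 0.05. All points are filled for OPC-like and astrocyte-like cells of tumors, and 2 of 7, Lss and Srebf2, for neuron-like cells of controls.

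Between tumors and controls, the microglia/macrophage-like cells, the resident and infiltrating phagocytes of the brain, had lower Sqle and Fdft1 in tumors, 2 of the 6 members tested (Lss was filtered for its low counts), beside 35.1% of all genes. The share of members called was thus near the background, of which 18.8% of all genes were lower. Sqle had 30.5, 44.5, 29.3 and 27.5 CPM in control replicates 1 to 4, from 8, 17, 8 and 10 UMIs, and 4.45, 10.7, 6.00, 16.9 and 13.5 CPM in tumor replicates 1 to 5, from 3, 36, 12, 56 and 19 UMIs. The groups did not overlap and the log2 difference was -1.19 ± 0.40 (SE, adjusted p = 0.0364). Fdft1 had 45.8, 34.0, 33.0 and 30.2 CPM in controls and 10.4, 13.6, 8.50, 15.98 and 20.5 CPM in tumors, without overlap, and differed by -0.94 ± 0.32 (SE, adjusted p = 0.0370). Srebf2 had 68.6, 57.6, 62.2 and 60.4 CPM in controls and 17.8, 37.6, 25.0, 51.9 and 29.7 CPM in tumors, without overlap but with a difference of -0.48 ± 0.32 (SE, adjusted p = 0.266), and Hmgcs1 differed by -0.49 ± 0.29 (SE, adjusted p = 0.211).

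Neuron transcripts moved with this result. The 10 neuron markers, all detected in both groups, summed to 3994 to 5686 CPM in the microglia/macrophage-like cells of controls, or 52.0% to 71.5% of their level in free RNA. In those of tumors they summed to 216 to 1467 CPM, or 7.63% to 32.3%. Free RNA was then subtracted, scaled to the neuron marker sum, with each gene that fell below 0 set to 0, an alternative chosen after seeing the data. Because of that floor the marker sum itself need not reach 0. Sqle then had 0, 53.2, 7.36 and 6.09 CPM in controls and 0, 3.47, 3.24, 12.5 and 0 CPM in tumors. Fdft1 had 10.8, 0, 7.36 and 0 CPM in controls and 0, 7.64, 5.95, 8.19 and 8.89 CPM in tumors. Both sets then overlapped and were too low to be tested. Hmgcs1 and Srebf2, which could still be tested, changed sign to 0.93 ± 0.89 (SE, adjusted p = 0.452) and 0.58 ± 0.85 (SE, adjusted p = 0.639). Both calls were lost by limma voom, with no filter on low counts, at a mitochondrial limit of 10%, with no doublets removed and with 5000 barcodes in place of 10000, and DESeq2 kept Sqle alone. They were also lost without any single control, where adjusted p values were 0.0706 to 0.177 for Sqle and 0.0916 to 0.122 for Fdft1, and for both genes without tumor replicate 2, without tumor replicate 3 and without tumor replicates 1 and 3 together. Fdft1 alone was also lost without tumor replicate 1 (0.0585) and Sqle alone without tumor replicate 5 (0.0506). Scaling by library totals gave 4 of 6 members lower, beside 40.2% of all genes called, with the median of all genes at -0.40 in place of -0.0011.

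**Figure D4:**
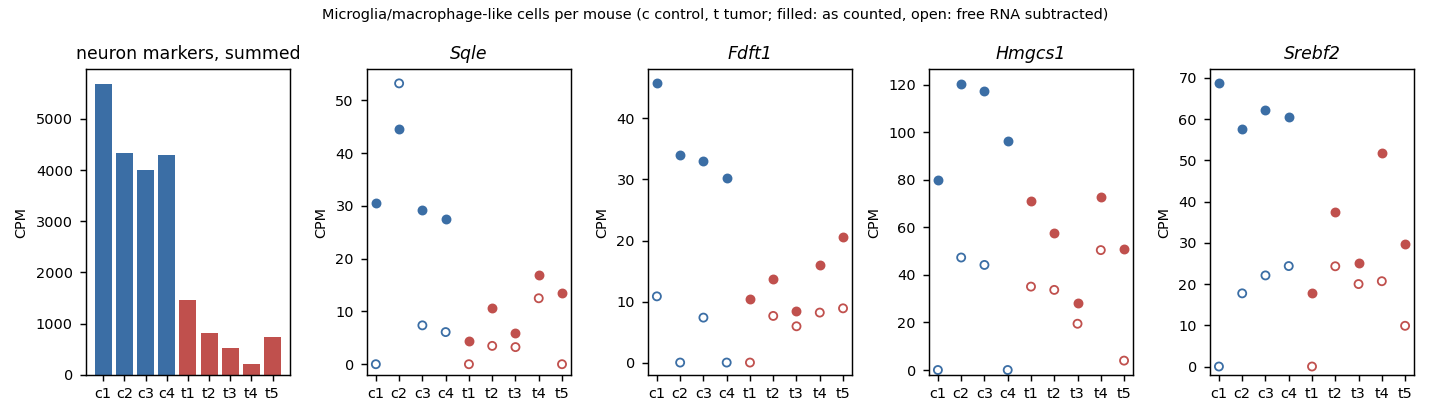
The left panel plots the summed neuron markers (CPM) in microglia/macrophage-like cells of each mouse, and the others plot Sqle, Fdft1, Hmgcs1 and Srebf2 (CPM) there as counted (filled) and with free RNA subtracted (open), blue for controls and red for tumors. Control bars stand above every tumor bar, and the open points of controls and tumors overlap for each of the 4 genes.

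In neuron-like cells, compared between controls and tumor replicates 1, 2, 3 and 5, 0 of 7 members passed by edgeR, beside 15.5% of all genes, and 0 had an unadjusted p under 0.05. DESeq2 and limma voom also called 0. Idi1 had 32.9, 35.3, 30.8 and 33.3 CPM in controls and 41.9, 75.0, 22.1 and 75.8 CPM in tumors, and the difference of 0.74 ± 0.36 (SE, adjusted p = 0.187) spanned a tumor below the controls, replicate 3, and 3 above them. Insig1, again with tumor replicate 3 below the controls, had 23.7, 23.7, 22.6 and 24.1 CPM in controls and 29.8, 49.3, 17.6 and 48.1 CPM in tumors, a difference of 0.67 ± 0.32 (SE, adjusted p = 0.182). The control values of both genes lay below the free RNA of the same libraries. Without tumor replicate 3 both passed, 2 of 7 members beside 18.2% of all genes, Idi1 at 0.97 ± 0.25 (SE, adjusted p = 0.0314) and Insig1 at 0.86 ± 0.24 (SE, adjusted p = 0.0369). Without tumor replicates 1 and 3, which left 2 tumors, 5 of 7 passed, all higher, with Idi1 at 1.26 ± 0.12 (SE, adjusted p = 1.94e-04), beside 40.2% of all genes. Markers of other cells differed with these values. The neural progenitor markers summed to 128 to 139 CPM in the neuron-like cells of controls and 187 to 1569.5 CPM in those of tumors, and the cycling markers to 37.6 to 44.8 CPM and 60.1 to 800.5 CPM, all 10 of each list being detected in both groups. By their means the neural-progenitor-like cells of tumors held Idi1 at 91.7 ± 17.99 CPM (SD, n = 4) and Insig1 at 50.0 ± 14.9 CPM (SD, n = 4). The part of these markers in the differences was not tested.

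The tumor effect itself was compared between neuron-like and microglia/macrophage-like cells. Sqle alone differed, by 1.37 ± 0.35 (SE, adjusted p = 0.0231), 1 of 7 members beside 11.9% of all genes, a share near the background. In neuron-like cells it had 37.6, 41.0, 39.5 and 39.2 CPM in controls and 33.1, 47.6, 20.6 and 67.0 CPM in tumor replicates 1, 2, 3 and 5, groups that overlapped, beside the lower tumor values in microglia/macrophage-like cells given above. This call was lost without any single control and without tumor replicate 5, at adjusted p values of 0.0503 to 0.102, and the neuron markers given above moved with it. Without tumor replicates 1 and 3, Hmgcs1 (0.99 ± 0.23, adjusted p = 0.00471) and Fdft1 (1.02 ± 0.35, adjusted p = 0.0441) passed as well, 3 of 7 beside 18.1% of all genes. With library totals in place of TMM 5 of 7 members were called, beside 26.1%, while the median of all genes moved from 0.0034 to 0.61.

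Cycling cells were compared with non-cycling cells of the same tumor. Among neural-progenitor-like cells only tumor replicates 4 and 5 had 30 of each, and 0 of 7 members passed by edgeR, beside 10.9% of all genes, with 1 at an unadjusted p under 0.05. Hmgcs1 came nearest, with 187 and 120.0 CPM in cycling and 144 and 73.7 CPM in non-cycling cells of these tumors (0.54 ± 0.18, adjusted p = 0.0712), and it passed by limma voom at an adjusted p of 0.0324. Over neural-progenitor-, OPC- and astrocyte-like and ungated cells together, a comparison added after seeing the data, tumor replicates 2 to 5 could be used. Again 0 of 7 members passed by edgeR, beside 25.6% of all genes, with 2 at an unadjusted p under 0.05 and 0 called by DESeq2 or limma voom. Fdft1 differed by 0.38 ± 0.13 (SE, adjusted p = 0.0624) and Lss by -0.54 ± 0.21 (SE, adjusted p = 0.0848), with Lss at 9.24, 8.43, 9.19 and 10.2 CPM in cycling and 17.2, 25.3, 14.2 and 11.8 CPM in non-cycling cells.

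Cells with a fusion UMI numbered at least 30 in tumor replicates 2, 4 and 5, and their levels are given without a test. Hmgcs1 had 217, 160.1 and 144 CPM, Idi1 121, 86.3 and 77.1 CPM, Insig1 62.0, 54.9 and 44.4 CPM and Lss 14.4, 10.8 and 11.1 CPM in these cells. Fdft1 had 48.1, 34.0 and 54.9 CPM, Sqle 54.1, 37.0 and 49.6 CPM and Srebf2 140.1, 105 and 81.6 CPM. The sums over all kept cells include the cells with a fusion UMI and every other type. Over all kept cells of the same tumors Hmgcs1 had 165, 138 and 129.5 CPM, Idi1 92.5, 83.2 and 79.2 CPM, Insig1 49.0, 44.5 and 41.4 CPM and Lss 13.6, 11.1 and 11.1 CPM. There Fdft1 had 43.2, 33.3 and 51.2 CPM, Sqle 44.5, 37.5 and 48.4 CPM and Srebf2 102, 97.7 and 72.6 CPM. Cells with a fusion UMI had the higher value in all 3 tumors for Hmgcs1, Fdft1, Srebf2 and Insig1, while Idi1 was lower in tumor replicate 5, Sqle in tumor replicate 4 and Lss in tumor replicates 4 and 5. How many of all genes were higher in all 3 tumors was not counted. Cells with a fusion UMI exceeded the free RNA of their own tumor in all 3 tumors for Idi1 alone. Free RNA was higher for Hmgcs1 in tumor replicate 5 (166 CPM), Fdft1 in tumor replicate 2 (48.3 CPM) and Srebf2 in tumor replicate 4 (116 CPM). It was also higher for Insig1 in tumor replicates 2 and 5 (62.3 and 52.0 CPM), Sqle in tumor replicate 5 (54.8 CPM) and Lss in all 3. A cell with more UMIs is more likely to show a fusion UMI, and the median depth of these cells was 7247, 8112 and 4806 UMIs. Over all kept cells of the same tumors it was 4523, 6512 and 3806 UMIs.

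Other genes of the pathway were counted by lists, which were chosen with earlier results of these data known. Over all kept cells, 10 of the 16 other sterol synthesis enzymes rose in tumors and 0 fell, with a median difference of 0.95, beside 32.3% of all genes that rose and 29.4% that fell. Among them were Ebp, a sterol isomerase late in the pathway (2.16 ± 0.29, adjusted p = 3.49e-04) and Mvk, the mevalonate kinase (1.90 ± 0.29, adjusted p = 6.50e-04). Of the 5 other genes of SREBP control, Srebf1, which drives lipid synthesis more widely, rose (2.23 ± 0.25, adjusted p = 1.90e-04) and Mbtps2, a protease that releases SREBPs, fell (-0.39 ± 0.15, adjusted p = 0.0481). Sterol uptake and handling had 5 of 12 genes higher, such as Npc2, which carries cholesterol in lysosomes (2.61 ± 0.28, adjusted p = 1.67e-04), and 2 lower, among them Cyp46a1, the neuronal cholesterol 24-hydroxylase (-1.79 ± 0.66, adjusted p = 0.0380). Of the 6 genes of LXR signalling and sterol export 5 rose, with the exporter Abca1 at 2.06 ± 0.25, adjusted p = 2.52e-04. They are called export genes below and include the LXR receptors Nr1h2 and Nr1h3. Of 8 fatty acid genes 3 rose, with Fasn, the fatty acid synthase, at 1.47 ± 0.33, adjusted p = 0.00397. For uptake and fatty acid genes the shares that rose were near that of all genes. The type mix differed for these counts too. Besides the fall in neuron markers (26784 to 29425 CPM in controls, 471 to 10958 CPM in tumors), the 10 microglia and macrophage markers, all detected in both groups, summed to 533 to 639 CPM over all kept cells of controls and 2674 to 11575 CPM over those of tumors. Within tumors, 2 to 5 of the export genes tested were lower in each other type compared than in microglia/macrophage-like cells, as counted by type next, and the part of this rise in their counts was not tested.

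The lists were also counted by type within tumors, with the share of all genes called in each direction beside them. In OPC-like against microglia/macrophage-like cells, where 14.6% of all genes were higher and 17.7% lower, 11 of the 16 other synthesis enzymes were higher, with Cyp51, the lanosterol demethylase, at 1.71 ± 0.21, adjusted p = 2.37e-04, and 1 was lower, Ebp (-0.96 ± 0.27, adjusted p = 0.0242). Of the uptake and handling genes 1 of 11 was higher and 4 were lower, and 5 of 8 fatty acid genes were higher. All 5 export genes tested were lower there, with Apoe, the main apolipoprotein made in the brain, at -3.79 ± 0.28, adjusted p = 1.01e-05 and Abca1 at -2.60 ± 0.37, adjusted p = 5.34e-04. In astrocyte-like cells (21.1% of all genes higher, 21.4% lower) 8 of 16 synthesis enzymes were higher and 1, Ebp, was lower, 2 of 5 export genes were lower and 0 higher, and 6 of 8 fatty acid genes were higher, while 1 of 11 uptake genes was higher and 5 were lower. In neural-progenitor-like cells (18.6% higher, 21.4% lower) 6 of 16 synthesis enzymes were higher and 1 lower, all 5 export genes tested were lower, 1 of 11 uptake genes was higher and 8 were lower, and 3 of 8 fatty acid genes were higher. In neuron-like cells (25.7% higher, 26.3% lower) 3 of 16 synthesis enzymes were higher, 1 was lower, all 5 export genes tested were lower, 2 of 10 uptake genes were higher and 5 lower, and 3 of 8 fatty acid genes were higher. Among vascular types, 1 of 12 synthesis enzymes was higher and 1 lower in endothelial-like cells (18.6% higher, 18.5% lower) and the 15 tested in mural-like cells (8.6% higher, 8.4% lower) did not pass. Genes of the LXR and export list went both ways there. In endothelial-like cells 4 of 5 were lower and 1 was higher, the LXR receptor Nr1h2 (0.58 ± 0.17, adjusted p = 0.0267). In mural-like cells 3 of 6 were lower and 1 was higher, the LXR receptor Nr1h3 (4.96 ± 0.76, adjusted p = 0.00389). Uptake genes also went both ways, with 2 of 9 higher and 5 lower in endothelial-like and 1 of 9 higher and 3 lower in mural-like cells. Of the fatty acid genes 0 of 7 and 1 of 8 were higher. Of the 5 other SREBP control genes 1 was higher in OPC-like cells, 2 were higher and 1 lower in astrocyte-like cells, 1 was lower in neural-progenitor-like, 2 in neuron-like and 1 in endothelial-like cells, and those of mural-like cells did not pass. Between tumors and controls within microglia/macrophage-like cells, where 16.3% of all genes were higher and 18.8% lower, 1 of 10 synthesis enzymes and 4 of 5 export genes were higher, 3 of 7 uptake genes were higher and 1 lower, and 3 of 8 fatty acid genes were lower. The neuron markers given above, at 52.0% to 71.5% of their free RNA level in controls and 7.63% to 32.3% in tumors, moved with these counts, and their part in them was not tested. Within neuron-like cells, where 7.95% of all genes were higher in tumors and 7.58% lower, 3 of 16 synthesis enzymes were higher and 0 lower, among them Mvk (1.32 ± 0.26, adjusted p = 0.0109) and Mvd, the mevalonate diphosphate decarboxylase (1.55 ± 0.31, adjusted p = 0.0111). Of the export genes 2 of 6 were higher there, Apoc1, an apolipoprotein (1.72 ± 0.25, adjusted p = 0.00284), and Nr1h2, an LXR receptor (0.75 ± 0.19, adjusted p = 0.0249), 1 of 10 uptake genes was higher, and of 8 fatty acid genes 1 was higher and 1 lower. In these neuron-like cells the microglia and macrophage markers summed to 200 to 241 CPM in controls and 214 to 669 CPM in tumors. The neural progenitor and cycling markers there were also higher in tumors and the neuron markers lower, as given above. The part of these markers in the neuron-like counts was not tested. The median over all genes lay at -0.035 for OPC-like and 0.0033 for astrocyte-like cells.

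The members varied together to differing degrees over 42 sums per mouse and type, which share libraries and depth. Pearson's r of log2(CPM + 10) ran from 0.29 for Idi1 and Lss to 0.83 for Hmgcs1 and Fdft1. Among 7964 genes outside the lists, those most like the members' mean pattern were Pou3f3 (r = 0.85), Pantr1 (r = 0.84), Neo1 (r = 0.81), Lrrn1 (r = 0.80) and Ncam1 (r = 0.79).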

How the data were processed

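Single-cell suspensions of 5 tumors and 4 control brains were profiled with the 10x 5' kit. The deposited matrices hold raw UMI counts per gene and barcode, which the authors made with Cell Ranger (version 6.1.2 per the file headers, version 7 in the submitters' processing notes, which also name Scanpy 1.8.2 and mm10). They include many barcodes that are not cells. The feature and barcode lists of control replicate 4 are shorter than its matrix. All 32285 mouse gene rows agree between the lists, so its genes were named from them, and its added sequences and barcodes were not used.

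The 10000 barcodes with most UMIs of each library, or all 9001 of tumor replicate 3, were filtered to 200 to 6000 genes, to the component with less mitochondrial RNA of a 2-component mixture (scikit-learn 1.9.0), and by Scrublet scores (scanpy 1.11.5), removing 0.8% doublets per 1000 barcodes. The mixture was fitted per library, and its limits differed: the barcodes it removed averaged 3.68% and 4.84% mitochondrial UMIs in tumor replicates 4 and 5, below the 7.61% to 8.73% of the cells kept in controls. A cell took the class of the marker list with most genes detected, with at least 3 of 10 and 2 more than any other list. A library stood for 1 mouse, which the sources used here do not state for each, so p-values measure the spread between these samples. Counts were summed per mouse and class with at least 30 cells and tested with edgeR 4.0.16 (quasi-likelihood, TMM, filterByExpr, adjusted p under 0.05), with DESeq2 1.42.0 and limma 3.58.1 voom as alternatives, beside no filter, other cell filters, a stricter gate, a replicate block and leaving out each mouse. The tests over all kept cells and between groups in microglia/macrophage-like cells were also run on simulated data with known changes. Few genes were changed there, unlike in these data, and tests with a term for the mouse were not simulated, so the runs do not bear on the calls given here. No 2 libraries agreed within sampling noise (chi-square per degree of freedom of at least 4.12). The 7 members were named in each comparison. From the pathway lists up to 2 genes with the smallest p in each direction could be named, some genes that the rule names not being reported here, and the 5 genes most like the members outside the lists with a mean of at least 20 CPM. The members and lists were chosen with earlier results of these data known. The limits given for a count of 0 cover counting error only.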

Additional observations from a re-analysis of the deposited data

Results flagged for a closer look

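Of 70 groups of 4 or 5 mice, 2 had a mouse far from the others, and chance alone marks about 1 in 20. Idi1 in OPC-like cells had 227 CPM in tumor replicate 5, against 131, 135 and 133 CPM in tumor replicates 2 to 4. Insig1 in neural-progenitor-like cells had 72.1 CPM in tumor replicate 3, from 33 UMIs, against 40.0, 45.3 and 42.5 CPM in tumor replicates 2, 4 and 5. The tumor effect on Sqle differed between neuron-like and microglia/macrophage-like cells by 1.37 ± 0.35, adjusted p = 0.0231 (edgeR interaction term, log2 scale). This was 1 of 7 members beside 11.9% of all genes, a share near the background. The call was lost without any single control and without tumor replicate 5, and the neuron markers in microglia/macrophage-like cells moved with it.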

How the results depend on the processing

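Of the log2 differences of single members recomputed under each alternative, 1106 kept their direction and side of the threshold, 76 lost and 36 gained it, and 47 changed sign. Counts of all genes called stayed within 1.5 times the value given in 163 of 189 cases and counts of members in 141 of 189. The cause of each change below was not tested. Small counts limit the vascular, OPC-like and control microglia/macrophage-like sums. Scaling by library totals, subtraction of free RNA, the cycling comparison over more cells and leaving out tumor replicates 1 and 3 were chosen after seeing the data.

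Over all kept cells 10849 genes were called, 5464 without neuron-like cells, and 4 members, 2 without them. Between tumors and controls in microglia/macrophage-like cells 2996 genes were called, 1673 with free RNA subtracted. Of the 2 members called there, DESeq2 called 1, limma voom, no filter on low counts, a mitochondrial limit of 10%, no doublets removed, 5000 barcodes, tumor replicates 1 and 3 left out and free RNA subtracted each called 0, and library totals called 4. Leaving out 1 mouse gave 0 to 2. In neuron-like cells 2404 genes were called, 3983 by DESeq2 and 6983 without tumor replicates 1 and 3, and 639 to 4085 without 1 mouse, while 0 members became 5 without tumor replicates 1 and 3 and 2 without tumor replicate 3. For the interaction 1364 genes were called, 2998 with library totals, 2093 without tumor replicates 1 and 3 and 497 to 1646 without 1 mouse, and 1 member became 5, 3 and 0 to 2.

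Against microglia/macrophage-like cells of tumors, endothelial-like cells went from 0 members to 1 with a mitochondrial limit of 10% and 1 without tumor replicate 4. Mural-like cells had 1641 genes called, 2533 with no filter on low counts and 813 to 2040 without 1 tumor, and 1 member became 2 with a mitochondrial limit of 10%, 0 with no doublets removed, 0 without tumor replicates 1 and 3, and 0 without any 1 tumor. Neuron-like cells went from 5 members to 3 with no term for the mouse and 3 without tumor replicate 2 or 5. Neural-progenitor-like cells had 4568 genes called, 2807 to 4379 without 1 tumor, and the count of members, 6, became 2 to 6. Cycling progenitors had 1060 genes called, 237 by DESeq2 and 69 with no term for the mouse, and 0 members became 1 by limma voom, 1 with no doublets removed and 1 with 5000 barcodes. Cycling neural or ungated cells had 3150 genes called, 484 with no term for the mouse and 1515 to 3820 without 1 tumor, and 0 members became 1 with no filter on low counts, with library totals, with 5000 barcodes and with the stricter marker gate.

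The groups share replicate numbers, but same-numbered libraries did not deviate together (correlations 0.0353, 0.0116, 0.00209 and 0.0462), so the numbers were not read as pairs. With the replicate number as a block, 8792 genes and 3 members were called over all kept cells, Hmgcs1 being lost at an adjusted p of 0.0784, and 300 genes and 0 members in neuron-like cells.

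Over all kept cells, the log2 difference changed sign for Fdft1 to -0.11 (library totals in place of TMM) and Srebf2 to -0.21 (library totals in place of TMM) and -0.026 to 0.18 (1 mouse left out, sign changed without tumor replicate 2). Between tumors and controls in microglia/macrophage-like cells, the log2 difference changed sign for Insig1 to -0.25 (library totals in place of TMM), Idi1 to -0.21 (library totals in place of TMM), -0.15 (stricter marker gate) and -0.13 to 0.52 (1 mouse left out, sign changed without tumor replicate 4), Hmgcs1 to 0.93 (free RNA subtracted) and Srebf2 to 0.58 (free RNA subtracted). Between tumors and controls in neuron-like cells, the log2 difference changed sign for Fdft1 to -0.064 (replicate block) and -0.21 to 0.37 (1 mouse left out, sign changed without tumor replicate 2), Sqle to -0.031 (limma voom), -0.11 (stricter marker gate), -0.25 (replicate block) and -0.14 to 0.30 (1 mouse left out, sign changed without tumor replicate 2 and without tumor replicate 5) and Srebf2 to -0.021 (limma voom), -0.081 (no filter on low counts), -0.18 (stricter marker gate), -0.056 (replicate block) and -0.24 to 0.13 (1 mouse left out, sign changed without tumor replicate 2). For the interaction, the log2 difference changed sign for Lss to -0.067 (tumors 1 and 3 left out) and -0.21 to 0.47 (1 mouse left out, sign changed without control replicate 4 and without tumor replicate 1). For neuron-like cells of controls, the log2 difference changed sign for Idi1 to -0.0057 to 0.40 (1 mouse left out, sign changed without control replicate 4). For endothelial-like cells, the log2 difference changed sign for Hmgcs1 to -0.031 (no filter on low counts), -0.0029 (no doublets removed), -0.086 (5000 barcodes), -0.21 (tumors 1 and 3 left out) and -0.11 to 0.25 (1 mouse left out, sign changed without tumor replicate 3) and Fdft1 to -0.051 (no filter on low counts), -0.23 (tumors 1 and 3 left out) and -0.11 to 0.30 (1 mouse left out, sign changed without tumor replicate 1). For mural-like cells, the log2 difference changed sign for Insig1 to -0.26 (tumors 1 and 3 left out) and -0.26 to 0.72 (1 mouse left out, sign changed without tumor replicate 3), Hmgcs1 to -0.39 (tumors 1 and 3 left out) and -0.39 to 0.79 (1 mouse left out, sign changed without tumor replicate 3) and Fdft1 to -0.016 (DESeq2), -0.14 (no filter on low counts), -0.15 (no doublets removed), -0.80 (tumors 1 and 3 left out) and -0.80 to 0.40 (1 mouse left out, sign changed without tumor replicate 3). For cycling neural or ungated cells, the log2 difference changed sign for Idi1 to -0.0074 (library totals in place of TMM) and -0.14 to 0.29 (1 mouse left out, sign changed without tumor replicate 4), Hmgcs1 to -0.043 (library totals in place of TMM) and -0.017 to 0.19 (1 mouse left out, sign changed without tumor replicate 4) and Sqle to -0.0093 to 0.34 (1 mouse left out, sign changed without tumor replicate 4).

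Library totals in place of TMM moved the share of all calls that were higher from 46.4% to 22.4% between tumors and controls in microglia/macrophage-like cells (32.6% by limma voom), from 67.2% to 96.4% for the interaction, from 50.0% to 62.9% for endothelial-like, 50.6% to 63.3% for mural-like, 49.6% to 71.6% for astrocyte-like, 45.1% to 74.6% for OPC-like, 49.4% to 75.9% for neuron-like and 46.5% to 69.3% for neural-progenitor-like cells against microglia/macrophage-like cells of tumors, from 68.0% to 56.5% (90.7% by DESeq2) for cycling progenitors, and from 52.2% to 36.6% for cycling neural or ungated cells.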
